A study of Mus musculus with 2 samples.

Results

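The cells described here are mouse cones whose visual pigment RNA is mainly that of the short-wave opsin, called S-dominant cones below. They were picked from single-cell RNA data of retina by a rule on their own counts. A cone needed at least 1500 UMIs (unique molecular identifiers, each standing for 1 captured transcript), at most 15% of UMIs from mitochondrial genes, and at least 10 UMIs and 0.5% of its UMIs from Arr3, Opn1sw, Opn1mw, Pde6h and Gnat2. Microglial C1qa, C1qb and C1qc had to stay under 0.1%, and the glial genes Apoe, Glul, Slc1a3 and Rlbp1 under 1%. A cone with at least 5 opsin UMIs was S-dominant when Opn1sw gave at least 80% of the UMIs of Opn1sw and Opn1mw together. This gave 93 cells in the PBS library and 51 in the NaIO3 library, 144 of 15988 barcodes in all. Of these barcodes 12036 passed the depth and mitochondrial limits, 395 of those were cones by the rule, and 385 cones had enough opsin UMIs for a call.

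Cones are the photoreceptors of daylight and colour vision. In the mouse most cones make both a short-wave opsin (Opn1sw) and a middle-wave opsin (Opn1mw), in proportions that change from dorsal to ventral retina, and a minority makes the short-wave opsin alone. Light absorbed by the opsin activates the cone transducin (Gnat2, Gnb3, Gngt2), which turns on a phosphodiesterase (Pde6c, Pde6h) that lowers cGMP and closes the channel made of Cnga3 and Cngb3. Arr3, the cone arrestin, helps to end the signal.

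The study gave mice sodium iodate (NaIO3), an oxidant that injures the retinal pigment epithelium on which photoreceptors depend, and collected tissue on day 7. The NaIO3 mice received 20 mg per kg into a vein, dissolved in phosphate-buffered saline (PBS), and the control mice received an equal volume of PBS alone. Each group was 1 droplet library made from the pooled retinas of 6 mice, digested with papain and DNase. Strain, sex and age are not given in the sources used here. Both libraries are labelled as CD11b-positive microglia, while the extraction text speaks of CD11b beads for the NaIO3 pellets alone, so any share of cells is confounded with that selection. The S-dominant cones are not of the labelled type, and the PBS members held 0 UMIs of the microglial genes Cx3cr1 and Ctss. With 1 library a group, nothing checks a difference between the groups against replicates, and none was tested. Every interval printed is at the 95% level and reflects counting error alone: exact binomial for shares, exact conditional binomial for ratios. A ratio is NaIO3 over PBS unless another is named.

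The members were deep among the cells of their libraries, which held 26605477 UMIs (PBS) and 75981079 UMIs (NaIO3). They had a median of 10085 UMIs (1912 to 76156) and 3513 genes in PBS, and a median of 8880 UMIs (2139 to 76512) and 3341 genes in NaIO3. Summed over members this came to 1562492 and 590819 UMIs, so that 1 UMI is worth 0.64 CPM (counts scaled to the summed UMIs of the group, expressed per 1000000) in PBS and 1.69 CPM in NaIO3. The median mitochondrial share was 10.4% in PBS and 4.47% in NaIO3. The libraries share 24 barcodes, and no barcode is a member in both.

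Cone markers that the rule did not use were found in members of both libraries, but not each of them in every member. Cngb3 had a UMI in 89 of 93 PBS and 44 of 51 NaIO3 members, Cnga3 in 61 and 26, and Gnb3 in all. Gngt2, the cone transducin gamma subunit, had at least 1 UMI in all 93 PBS and all 51 NaIO3 members, and so did Pde6c, the catalytic subunit of the cone phosphodiesterase. In rods, which should lack it, thinned to 1500 UMIs a cell, Gngt2 was seen in 1.53% of 4257 PBS and 2.07% of 3821 NaIO3 cells, against 97.8% and 98.0% of members at that depth. The rods were picked with Arr3, Opn1sw, Opn1mw, Pde6h and Gnat2 together under 0.1% of UMIs, which leaves out cells with much cone RNA. Rod RNA was also present in every member. The summed level of 16 rod genes stood at 57351 CPM in PBS and 27518 in NaIO3, while the per-cell medians were 20693 and 22407 CPM. The members with at least 0.5% of their UMIs from 5 rod genes, 41 in PBS and 27 in NaIO3, were the deeper ones, with median depths of 19965 and 14449 UMIs against 8788 and 5957.5 in the others. Summed levels therefore weigh these rod-rich cells more than per-cell medians do. Whether they are cones captured together with a rod was not tested, and the doublet caller did not work on either library.

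Markers of other retinal cells were low in most members. The 7 bipolar cell markers summed to 118 CPM in PBS, with Trpm1 and Grm6 at 0, and to 1022 CPM in NaIO3, where 3 cells held 76.5% of those UMIs. Müller glia markers stood at 100.5 and 278 CPM (7 genes; Slc1a3, Aqp4 and Dkk3 at 0 in PBS), microglia markers at 10.2 and 45.7 CPM (7 genes; Cx3cr1 at 0 in both), and amacrine markers at 17.3 and 33.9 CPM (5 genes; Gad1, Tfap2a and Tfap2b at 0 in both). The 4 endothelial markers stood at 7.68 and 60.9 CPM, with 97.2% of the NaIO3 UMIs in 3 cells, and the 5 pigment epithelium markers at 1.28 and 1.69 CPM, with Rpe65 at 0 in both. Because of the rod and bipolar RNA, each gene group below is also given in the members low in it, with the rod genes under 0.5% and 5 bipolar genes under 0.05% of UMIs. This subset, the low-rod members below, was chosen after the data were seen and holds 52 PBS and 23 NaIO3 members.

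The opsins themselves chose the members, and their values are a description. Opn1sw, on chromosome 6, had a median of 160 UMIs a member in PBS (23 to 391) and 58 UMIs in NaIO3 (5 to 151). Opn1mw, on chromosome X, had a median of 12 UMIs in PBS (0 to 47) and 0 UMIs in NaIO3 (0 to 25). The median Opn1sw share of opsin UMIs was 93.3% in PBS and 100% in NaIO3. In summed levels Opn1sw stood at 10079 CPM in PBS and 5327 in NaIO3, Opn1mw at 749 and 308 CPM, Arr3 at 1615 and 663 CPM, Gnat2 at 2079 and 1036 CPM, and Pde6h at 6229 and 4541 CPM. All of these gate genes were lower in the NaIO3 members, and the Opn1sw UMIs of single cells overlapped between the libraries.

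The opsin promoters are shown because these genes define the cells. Each is the stretch of 250 bases before the RefSeq start on build GRCm38.p6, 5′ to 3′ on the gene's own strand. Opn1sw is chr6:29380514-29380763 on the minus strand and Opn1mw is chrX:74127216-74127465 on the plus strand. Capitals mark TAATC, the core of the sites bound by the photoreceptor factors CRX and OTX2, searched on both strands.
Opn1sw: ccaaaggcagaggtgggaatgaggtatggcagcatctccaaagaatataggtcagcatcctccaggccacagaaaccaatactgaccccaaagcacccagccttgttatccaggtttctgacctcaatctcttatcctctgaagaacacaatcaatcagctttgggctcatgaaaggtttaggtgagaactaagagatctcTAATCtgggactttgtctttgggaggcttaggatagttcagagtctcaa
Opn1mw: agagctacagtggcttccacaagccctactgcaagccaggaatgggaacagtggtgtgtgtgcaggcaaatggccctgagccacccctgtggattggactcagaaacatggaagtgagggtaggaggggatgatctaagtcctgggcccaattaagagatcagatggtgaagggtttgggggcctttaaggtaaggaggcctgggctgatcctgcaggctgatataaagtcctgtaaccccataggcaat
The Opn1sw window holds 1 match, 49 to 45 bases before the start, and the Opn1mw window 0. Of 32851 promoter windows of this length 19.8% hold the motif, so a match alone tells little about a gene. GENCODE M21 lists a longer Opn1sw gene, 29376671 to 29388468, so this start lies inside it.

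Cones fell along the whole range between the opsins. Of the called cones, 70 of 202 in PBS and 90 of 183 in NaIO3 had an Opn1sw share under 5%, and 24 and 27 had a share of 99% or more. The rule set a line through a continuum: 13 PBS members lay between 80% and 85% (lowest 80.7%) and 14 cones just outside between 75% and 80% (highest 79.8%). In NaIO3 8 members lay just inside and 3 cones just outside. The cones just outside had a median of 32.5 Opn1mw UMIs in PBS, and the members just inside 29.

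S-dominant cones made up 46.0% of called cones in PBS (39.0 to 53.2) and 27.9% in NaIO3 (21.5 to 35.0). With each cone thinned to 1500 UMIs before the opsin call, cones with few opsin UMIs lost their call: 171 of 202 kept it in PBS and 94 of 183 in NaIO3, where 42 S-dominant and 52 other cones were left. Over these smaller denominators the shares were 50.9% in PBS (43.1 to 58.6) and 44.7% in NaIO3 (34.4 to 55.3). Of all cells past the depth and mitochondrial limits, the members were 2.0% in PBS (1.62 to 2.44) and 0.691% in NaIO3 (0.515 to 0.908), where the bead selection cannot be told apart from the treatment.

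Members with no Opn1mw UMI were 18 of 93 in PBS, or 19.4% (11.9 to 28.9), and 27 of 51 in NaIO3, or 52.9% (38.5 to 67.1). Opsin UMIs of both kinds were fewer in NaIO3, which makes an absent Opn1mw UMI easier to reach. Thinned to 1500 UMIs, 60.2% of PBS members (49.5 to 70.2) and 29.4% of NaIO3 members (17.5 to 43.8) still had an Opn1mw UMI. In rods at that depth the shares were 1.08% and 0.236%. Since Opn1mw is among the genes held under 0.1% to pick rods, that limit itself keeps these shares low, and they are no independent background.

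**Figure D1:**
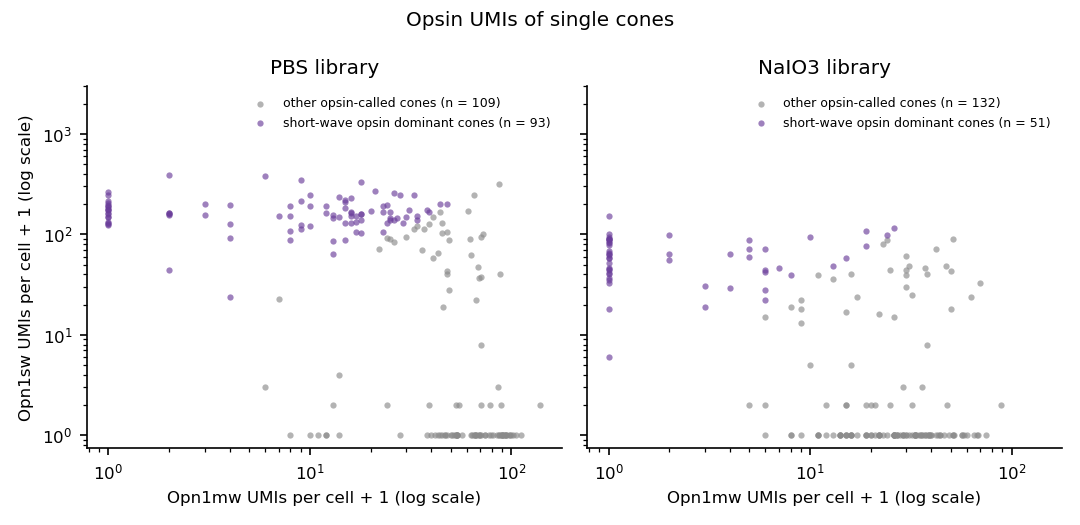
Opn1mw UMIs (horizontal) and Opn1sw UMIs (vertical) of single cones in the PBS library (left) and the NaIO3 library (right), each plus 1 on log axes; every point is a cell, purple for S-dominant and grey for other called cones. The 93 PBS members centre on 160 Opn1sw UMIs and the 51 NaIO3 members on 58, and 18 and 27 members stand at 0 Opn1mw UMIs.

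Beyond the opsins, S-dominant cones were set against the other called cones within each library, 109 in PBS and 132 in NaIO3. Few genes differed. In PBS 9 of 3603 genes were at least 2-fold higher in S-dominant cones (0.25%) and 8 lower (0.222%). In NaIO3 33 of 4227 genes were higher (0.781%) and 30 lower (0.71%). Of the 3370 genes measured in both libraries 3 were higher in both (0.089%) and 2 lower in both (0.0593%). The genes counted had at least 50 CPM in either group and 20 summed UMIs, and the opsins and the other gate genes were left out. Opsin RNA sorted these cells, so the differences describe the classes and are no test of them.

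Ccdc136, which encodes a coiled-coil protein, had the most UMIs of the genes higher in S-dominant cones in both libraries. In PBS it stood at 1120 CPM in S-dominant and 263 CPM in other cones, a ratio of 4.26 (3.84 to 4.75). In NaIO3 it stood at 1363 and 286 CPM, a ratio of 4.76 (4.25 to 5.34). It had a UMI in 93 of 93 PBS members and 51 of 109 other PBS cones, and in 50 of 51 NaIO3 members and 69 of 132 others. Rods had 3.85 and 11.1 CPM of it, while bipolar cells had 969 and 1103 CPM, near the level of S-dominant cones. Between the libraries its level in the members had a ratio of 1.22 (1.12 to 1.32), while Opn1sw in those cells was at 0.528 of PBS (0.508 to 0.549).

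Ccdc136 is the neighbour of Opn1sw. On GENCODE M21 it lies on chromosome 6 from 29396309 to 29426994 on the plus strand, and Opn1sw from 29376671 to 29388468 on the minus strand. The genes point away from each other with 7.8 kb between these GENCODE starts. The RefSeq start of Opn1sw used for the promoter above lies further from Ccdc136. Calu, which encodes a calcium-binding protein of the secretory pathway and overlaps the end of Opn1sw, was at 48.6 against 38.7 CPM in PBS, S-dominant over other cones 1.26 (0.890 to 1.78), and at 105 against 59.5 CPM in NaIO3, 1.76 (1.26 to 2.45). Atp6v1f, a proton pump subunit on the far side of Ccdc136, had ratios of 1.06 (0.886 to 1.26) and 0.778 (0.599 to 1.0). Flnc, which lies between, had 0 UMIs in all 4 groups of cones. The differences of Calu and Atp6v1f were below 2-fold in both libraries, but in cells low in rod and bipolar genes Calu had ratios of 2.02 and 2.85.

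Cacna1h, a low-voltage-activated calcium channel subunit, stood at 79.4 against 14.5 CPM in PBS, a ratio of 5.48 (3.52 to 8.87) of S-dominant over other cones. In NaIO3 it was at 57.5 against 17.2 CPM, 3.34 (1.97 to 5.68). Syndig1l, a membrane protein gene, was at 124 against 55.6 CPM in PBS, 2.22 (1.73 to 2.88), and 144 against 45.8 CPM in NaIO3, 3.14 (2.28 to 4.33). On the other side Fzd10, a Wnt receptor, was at 65.3 against 144 CPM in PBS, 0.452 (0.355 to 0.573), and 52.5 against 114 CPM in NaIO3, 0.459 (0.304 to 0.674). The unnamed gene model AC146911.1 was at 0.454 and 0.436 of the other cones. Ccdc136, Syndig1l and AC146911.1 also differed at least 2-fold in both libraries in cells low in rod and bipolar genes. There Cacna1h had ratios of 6.96 and 7.60 on fewer UMIs, and Fzd10 stayed below the other cones at 0.471 and 0.610.

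Some regulators with a known place in cone patterning also differed, and others did not. They were taken from the list of transcription factors, except Vax2 and Vax2os, which were named after their values were seen. Thrb, the thyroid hormone receptor that is needed for Opn1mw in the mouse, was at 249 against 357 CPM in PBS, 0.697 (0.612 to 0.794), and 328 against 522 CPM in NaIO3, 0.630 (0.536 to 0.736). Nr2f2, a nuclear receptor of dorsal mouse retina, had 0 UMIs in 93 PBS members against 44.1 CPM in 38 of 109 other cones, at least 23-fold lower, and in NaIO3 it was at 11.8 against 57.7 CPM, 0.205 (0.0804 to 0.439). Vax2, a factor of ventral mouse retina, was at 74.2 against 24.8 CPM in PBS, 3.0 (2.08 to 4.39), and at 64.3 against 32.7 CPM in NaIO3, 1.97 (1.27 to 3.03). Its antisense neighbour Vax2os was at 720 against 269 CPM and 503 against 260 CPM. The genes overlap on opposite strands, and rods had 1272 CPM of Vax2os in PBS and 692 CPM in NaIO3, and the part of shared reads or rod RNA in these levels was not tested. Crx and Otx2, which switch on photoreceptor genes, had ratios between 0.972 and 1.17 in the libraries.

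Nrxn3, a neurexin of the presynaptic membrane, was found mostly in S-dominant cones in PBS, at 46.7 CPM in 26 of 93 members against 3.62 CPM in the other cones, a ratio of 12.9 (5.65 to 36.3). It is outside the counts above, since neither level reaches 50 CPM. In NaIO3 it stood at 345 against 97.5 CPM, 3.54 (2.87 to 4.37). Bipolar cells of the NaIO3 library had 1370 CPM of it, and their part in these levels was not tested. In cones low in rod and bipolar genes the ratios were 14.5 in PBS and 12.1 in NaIO3. Thinned to 1500 UMIs, 6.45% of PBS members and 0% of other PBS cones had a Nrxn3 UMI (0 of 109, which allows up to 3.33%), against 45.1% and 6.82% in NaIO3. Thinned to 1000 UMIs, the shares of members were nearer to each other, 7.53% in PBS and 17.6% in NaIO3.

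**Figure D2:**
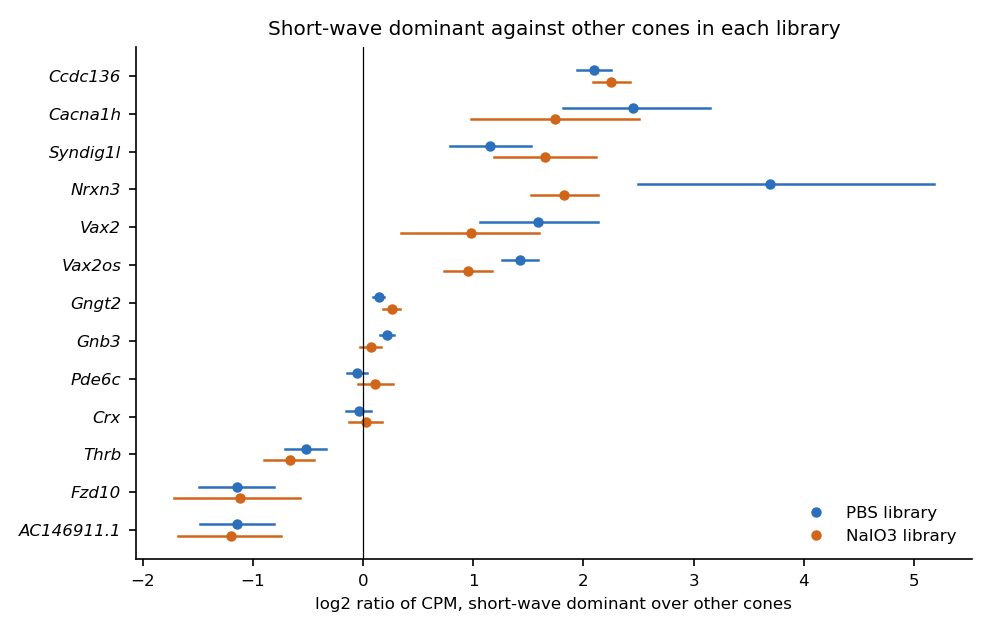
log2 ratio of CPM in S-dominant over other called cones (horizontal) for 13 genes, in the PBS library (blue) and the NaIO3 library (orange); points are ratios and lines their 95% counting intervals. Ccdc136, Cacna1h, Syndig1l, Nrxn3, Vax2 and Vax2os lie right of 0 in both libraries, Thrb, Fzd10 and AC146911.1 left of it, and the phototransduction genes near 0.

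The members were then split by whether they held an Opn1mw UMI, a split made after the data were seen. In PBS the 18 cells with none and the 75 with some had median depths of 9232 and 10309 UMIs, the deepest at 48048 and 76156. Their median shares of the 5 rod genes were 0.123% and 0.251%, and what rod RNA adds to the ratios was not tested. Nrxn3 sat in the cells with none: 220 against 16.5 CPM, a ratio of 13.3 (7.94 to 23.1) of none over some, with a UMI in 16 of 18 cells against 10 of 75. Cacna1h was at 164 against 64.6 CPM, 2.54 (1.69 to 3.76), and Ccdc136 at 1442 against 1064 CPM, 1.36 (1.2 to 1.53). Ccdc136 did not stand out from cone genes: Gngt2 had a ratio of 1.67, Opn1sw 1.44 and Gnat2 1.35, while Arr3 had 0.683. Thrb was at 56.1 against 283 CPM, 0.199 (0.105 to 0.344), and Fzd10 had 0 UMIs in the 18 cells against 76.6 CPM in 46 of the 75, at least 5.92-fold lower.

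In NaIO3 the 27 cells with none and the 24 with some were compared in the same way. Nrxn3 was at 427 against 277 CPM, 1.54 (1.16 to 2.05), in 23 of 27 cells against 6 of 24. Of the 24 cells, 2 held 64 of 89 UMIs, and the others stood at 109 CPM. Ccdc136 had a ratio of 1.35, beside 1.36 for Gngt2, 1.07 for Gnat2 and 0.839 for Arr3. Thrb was at 208 against 430 CPM, 0.484 (0.348 to 0.664), and Fzd10 at 11.1 against 87.2 CPM, 0.128 (0.0248 to 0.413). Cacna1h did not keep its difference, at 59.4 against 56.0 CPM, 1.06 (0.505 to 2.20). With fewer opsin UMIs in NaIO3, more mixed cones can fall among those with none, and that was not tested.

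The NaIO3 and PBS members were next compared across genes. Of 4204 genes that reached 50 CPM in 1 of the libraries and 20 UMIs in sum, 414 were at least 2-fold higher in NaIO3 (9.85%) and 116 at least 2-fold lower (2.76%). The median log2 ratio of all tested genes was 0.25 by CPM and −0.08 with TMM scaling, which turned the counts to 173 higher and 270 lower, so the higher share of called genes went from 78.1% to 39.1%. Levels of gene groups are therefore read against that median. In the groups a gene is measured from 20 CPM in 1 of the libraries and 10 UMIs in sum, and is counted at 1.5-fold; at that minimum 2247 of 7427 genes were higher (30.3%) and 696 lower (9.37%), and the median was 0.27. In the low-rod members 26% of 7087 genes were higher and 22.8% lower (median 0.10). A gene that reached 20 CPM in 1 library alone had to be higher in that library. The lists were chosen with earlier results of these data known.

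Phototransduction genes outside the rule were mostly lower than the median of all genes. Of 19 measured, 1 was at least 1.5-fold higher and 6 lower; the median was −0.29, against −0.23 in the other cones and −0.33 in members low in rod and bipolar genes. The median was negative under each scaling, −0.57 with TMM.

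The lowest ratios were those of Guca1b, Pdc and Rcvrn. Guca1b, a calcium sensor of guanylate cyclase, was at 1145 CPM in PBS and 369 in NaIO3, a ratio of 0.322 (0.279 to 0.371). Rods had 2417 and 665 CPM of Guca1b. The low-rod members held 275 and 105 CPM of it, 0.384 (0.209 to 0.658), on 15 NaIO3 UMIs. Pdc, phosducin, which binds transducin beta and gamma, was at 7218 and 2605 CPM, 0.361 (0.342 to 0.381). Rods had 12845 and 4062 CPM of Pdc, and its ratio in members low in rod and bipolar genes was 0.526 (0.453 to 0.607), nearer to 1 than in all members. Rcvrn, recoverin, which acts on opsin kinase, was at 3258 and 1737 CPM, 0.533 (0.498 to 0.570), and at 0.398 in the low-rod members.

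Other members of the cascade differed less. Guca1a, a cyclase sensor that rods of these libraries also held at 3878 and 2520 CPM, was at 5430 CPM in PBS and 3241 in NaIO3, 0.597 (0.568 to 0.627), with per-cell medians of 6232 CPM (1436 to 15361) and 3325 CPM (823 to 6415). Pde6c was at 1187 and 763 CPM, 0.643 (0.579 to 0.713), with per-cell medians of 1519 CPM (187 to 4682) and 888 CPM (118 to 3435). The single cells of the libraries overlapped for both genes, and both ratios were almost the same in the low-rod members, 0.583 and 0.655. The transducin subunits Gngt2, at 3952 and 3234 CPM, and Gnb3, at 2598 and 2040 CPM, had ratios of 0.818 (0.777 to 0.862) and 0.785 (0.735 to 0.837).

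The channel subunits had ratios near 1. Cnga3 was at 68.5 CPM in PBS and 77.9 in NaIO3, 1.14 (0.787 to 1.62), and Cngb3 at 250 and 249 CPM, 0.997 (0.819 to 1.21). Rgs9, which speeds transducin's shut-off, was at 695 and 818 CPM, a ratio of 1.18, while its anchor Rgs9bp was at 459 and 295 CPM, 0.642. Slc24a2, the cone exchanger of sodium, calcium and potassium, was the single gene at least 1.5-fold higher, at 152 and 259 CPM, 1.71 (1.38 to 2.10).

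**Figure D3:**
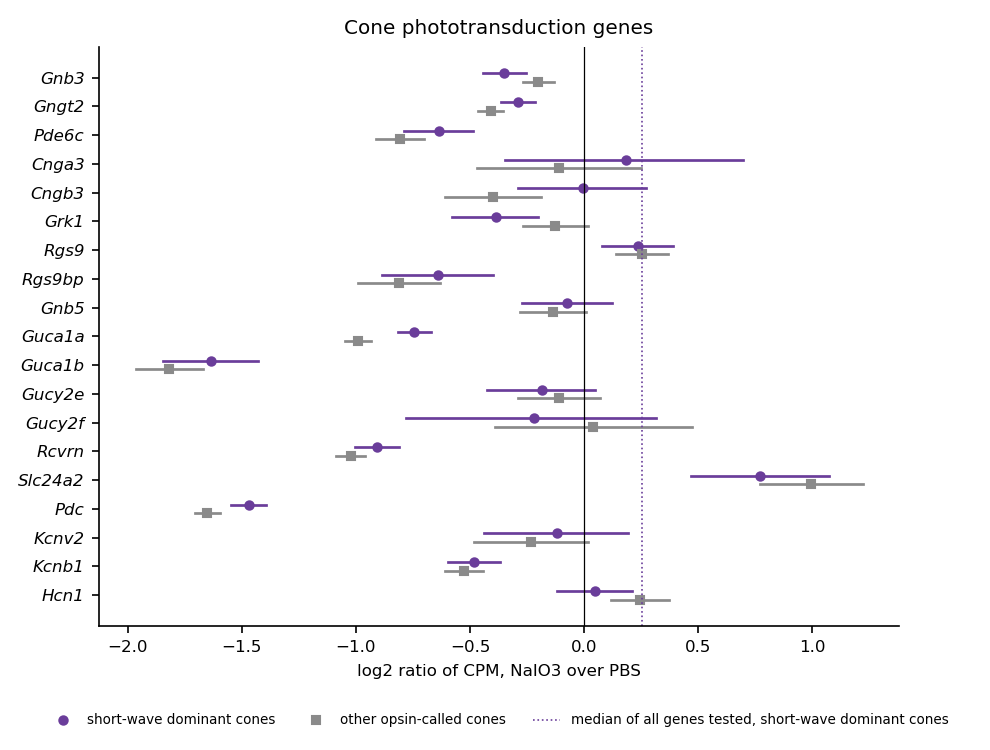
log2 ratio of CPM, NaIO3 over PBS (horizontal), for 19 phototransduction genes outside the rule; purple points are S-dominant cones and grey squares other called cones, lines are 95% counting intervals, and the dotted line is the median of all tested genes in S-dominant cones, 0.25. Guca1b and Pdc lie furthest left, Cnga3 and Cngb3 near 0, and Slc24a2 furthest right among S-dominant values.

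Genes of the outer segment and its cilium were split. Of 22 measured, 3 were higher and 6 lower by 1.5-fold, with a median log2 ratio of −0.24 in S-dominant cones, −0.32 in other cones and −0.25 in the low-rod members. Prph2, a tetraspanin that shapes the disc rim, was at 3749 CPM in PBS and 1484 in NaIO3, 0.396, and at 0.445 in the low-rod members. Its partner Rom1 was at 3539 and 1852 CPM, 0.523, and Unc119, a chaperone that carries transducin alpha, at 3038 and 1219 CPM, 0.401. On the higher side Mak, a kinase of the cilium, was at 298 and 594 CPM, 1.99, and Impg2, a component of the matrix around photoreceptors, at 289 and 548 CPM, 1.90 (2.50 in the low-rod members). In the visual cycle, 1 of 7 genes was higher and 1 lower, with medians of 0.19 and −0.10 in all and low-rod members, and Rbp3, the retinoid carrier of that matrix, was at 2715 and 1984 CPM, 0.731.

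Transcription factors of photoreceptors were near the median of all genes. Of 15 measured, 3 were higher and 0 lower; the median was 0.29, and 0.01 with TMM. Low-rod members had 3 of 14 higher and 1 lower (median 0.26). Crx was at 806 CPM in PBS and 818 in NaIO3, 1.01. Neurod1, a factor that mouse photoreceptors need for survival, was at 1236 and 2128 CPM, 1.72 (1.6 to 1.85), and Otx2 at 234 and 396 CPM, 1.70 (1.43 to 2.0), but in the low-rod members their ratios were 1.25 and 1.18. Sall3, a factor of mouse cone differentiation, was at 64.6 and 122 CPM, 1.89 (1.37 to 2.58).

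Synaptic genes had 5 of 21 measured members higher and 1 lower; the median was 0.33 and 0.05 with TMM. The counts were 5 of 21 higher and 3 lower in low-rod members (median 0.25). Nrxn3 had by far the largest ratio of them, 46.7 CPM in PBS and 345 in NaIO3, 7.39 (5.63 to 9.79). In the low-rod members it was 3.83 (2.50 to 5.88), in members with no Opn1mw UMI 1.94 (1.38 to 2.75) and in those with some 16.8 (10.4 to 28.1), or 6.58 without 2 cells, so its size depended on which members were summed. Pclo, a scaffold of the ribbon synapse, was at 136 and 284 CPM, 2.10, and Syt1, a calcium sensor of release, at 887 and 1674 CPM, 1.89. Slc17a7, the vesicular glutamate transporter, was at 1587 and 1210 CPM, 0.763.

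Injury genes included some of the highest ratios. Of 22 listed, 9 stayed under the minimum, and the 13 measured were at least 1.5-fold higher, with a median log2 ratio of 3.86 in S-dominant cones, 4.48 in other cones and 6.00 in rods. Since 8 of the 13 reached the minimum through the NaIO3 library alone and so had to be higher, the count says less than the genes' own values. In the low-rod members 8 of 9 measured were higher, with a median of 2.80. Genes with 0 UMIs in PBS enter these medians at their bound of 3 counts. In PBS that bound is 1.92 CPM in S-dominant cones, 1.81 CPM in other cones and 0.189 CPM in rods. It was used for 5, 4 and 1 of the 13 genes in these classes, so their medians are not strictly comparable.

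Fgf2, a growth factor that photoreceptors make under stress, was at 12.2 CPM in PBS and 176 in NaIO3, 14.5 (8.82 to 25). It had a UMI in 16 of 93 PBS and 27 of 51 NaIO3 members, with per-cell medians of 0 CPM (0 to 100.5) and 55.9 CPM (0 to 700). Thinned to 1500 UMIs the shares were 0% and 23.5%, and the ratio in the low-rod members was 21.0 (4.75 to 191). Edn2, an endothelin made by injured photoreceptors, had 0 UMIs in PBS and 76.2 CPM in 19 of 51 NaIO3 members, at least 39.7-fold higher, while the low-rod NaIO3 members held 7.03 CPM. Its receptor gene Ednrb was at 1.28 and 28.8 CPM, 22.5-fold on 2 PBS UMIs.

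Signalling genes downstream of the gp130 cytokines were higher in the same members. Stat3, their main transcription factor, was at 40.3 CPM in PBS and 190 in NaIO3, 4.70 (3.42 to 6.51), with per-cell medians of 0 and 140 CPM and a ratio of 2.51 (1.35 to 4.61) in the low-rod members. Cebpd, a leucine zipper factor of acute responses, had 0 UMIs in PBS and 96.5 CPM in 21 NaIO3 members, at least 50.2-fold higher. Junb was at 31.4 and 330 CPM, 10.5 (7.66 to 14.7), with per-cell medians of 0 CPM (0 to 338) and 280 CPM (0 to 1887), and at 6.96 in the low-rod members. There Cebpd had 0 and 3 UMIs. The receptor subunits Lifr, at 58.9 and 115 CPM, and Il6st, at 30.1 and 57.5 CPM, had ratios of 1.95 and 1.91.

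Socs3, the feedback inhibitor of that pathway, had a smaller ratio. It was at 60.2 CPM in PBS and 108 in NaIO3, 1.80 (1.29 to 2.50), with a lower per-cell median in NaIO3, 23.8 against 0 CPM, and a ratio of 1.12 in the low-rod members. In the other cones it was at 11.5 and 91.6 CPM, 7.98 (4.94 to 13.6). The classes differed in PBS. There S-dominant cones had a Socs3 UMI in 50 of 93 PBS cells and a level 5.24 times that of other cones (3.18 to 9.09), whereas in NaIO3 the classes had a ratio of 1.18 (0.869 to 1.59).

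The metallothioneins, small proteins that bind zinc and copper, had high ratios with an uneven spread over cells. Mt1 was at 10.2 CPM in PBS and 377.4 in NaIO3, 36.9 (22.2 to 65.6), with a UMI in 10 and 27 members and 38.6% of the NaIO3 UMIs in 1 cell. Mt2 had 0 UMIs in PBS and 94.8 CPM in 14 NaIO3 members, at least 49.4-fold higher, with 41.1% in 1 cell. In the low-rod members Mt1 had 1 UMI in PBS and 97 in NaIO3, a ratio of 313 (54.8 to 12482), but 1 cell held 86 of the 97, and without it the ratio was 37.7 (5.48 to 1624). Without the top 2 cells of all members the Mt1 ratio was 11.5 (6.61 to 21.3). Müller glia of the NaIO3 library had 7109 and 1997 CPM of them, and what free glial RNA adds here was not tested. In members with no Opn1mw UMI Mt1 was at 642 CPM in NaIO3, against 156 CPM in those with some. Of the former's 173 UMIs 2 cells held 156, and the other 25 cells stood at 68.9 CPM, below the cells with some Opn1mw.

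The metallothionein promoters are shown because zinc acts on them through the factor MTF1. Capitals mark TGCNCNC, the core of its response element, on either strand, in the 250 bases before each RefSeq start on build GRCm38.p6, 5′ to 3′. Both genes lie on the plus strand, Mt1 at chr8:94178839-94179088 and Mt2 at chr8:94172368-94172617.
Mt1: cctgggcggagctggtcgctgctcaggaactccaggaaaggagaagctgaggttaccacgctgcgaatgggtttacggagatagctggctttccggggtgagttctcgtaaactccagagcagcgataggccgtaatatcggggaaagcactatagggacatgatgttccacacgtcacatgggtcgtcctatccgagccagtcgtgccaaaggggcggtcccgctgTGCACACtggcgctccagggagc
Mt2: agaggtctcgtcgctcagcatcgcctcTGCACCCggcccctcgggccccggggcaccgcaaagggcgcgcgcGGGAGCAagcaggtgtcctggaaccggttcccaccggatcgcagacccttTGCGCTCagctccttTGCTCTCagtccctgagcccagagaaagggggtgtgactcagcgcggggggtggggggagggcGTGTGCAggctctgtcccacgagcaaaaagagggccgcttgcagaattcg
The Mt1 window holds 1 match and the Mt2 window 5, counts that hold for these starts alone. GENCODE M21 lists Mt1 from 94179082 and Mt2 from 94172664, and bases past the RefSeq starts were not searched. A match is common, since 44.4% of 32851 windows hold it.

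Immediate early genes, which neurons switch on within minutes of a stimulus, were higher too. Of 14 measured, 5 of them through NaIO3 alone, 11 were higher and 0 lower; the median was 1.46 in S-dominant cones, 1.57 in other cones, 1.43 in rods and 1.77 in the low-rod members. Fos was at 80 CPM in PBS and 1060 in NaIO3, 13.2 (10.9 to 16.2), with per-cell medians of 0 CPM (0 to 1207) and 588 CPM (0 to 4885). Single cells overlapped, since 45 of 93 PBS members also had a Fos UMI and 12 of 51 NaIO3 members had none. In the low-rod members the ratio was 7.21 (5.14 to 10.2). At 1500 UMIs a cell 9.68% of PBS and 51.0% of NaIO3 members had one, against 13.8% and 65.2% of other cones.

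Egr1, a zinc finger factor, was at 155 and 770 CPM, 4.97 (4.25 to 5.84), with per-cell medians of 33.9 CPM (0 to 1684) and 527 CPM (0 to 2475), and at 2.33 in the low-rod members. Fosb was at 9.60 and 171 CPM, 17.8 (10.3 to 33), Jun at 89.0 and 198 CPM, 2.23, and Nr4a1 at 30.7 and 67.7 CPM, 2.20. Others of the list did not pass 1.5-fold: Jund had a ratio of 1.11, Btg2 1.32 and Ier3 0.959. The PBS members without Opn1mw held more Fos than those with it, 186 against 61.6 CPM, 3.01 (2.03 to 4.41), and 1009 against 1102 CPM in NaIO3. Their NaIO3 ratio was 5.43 (3.93 to 7.68) against 17.9 (14.0 to 23) in the rest. Papain digestion took place in both groups, and its part in these levels was not tested.

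**Figure D4:**
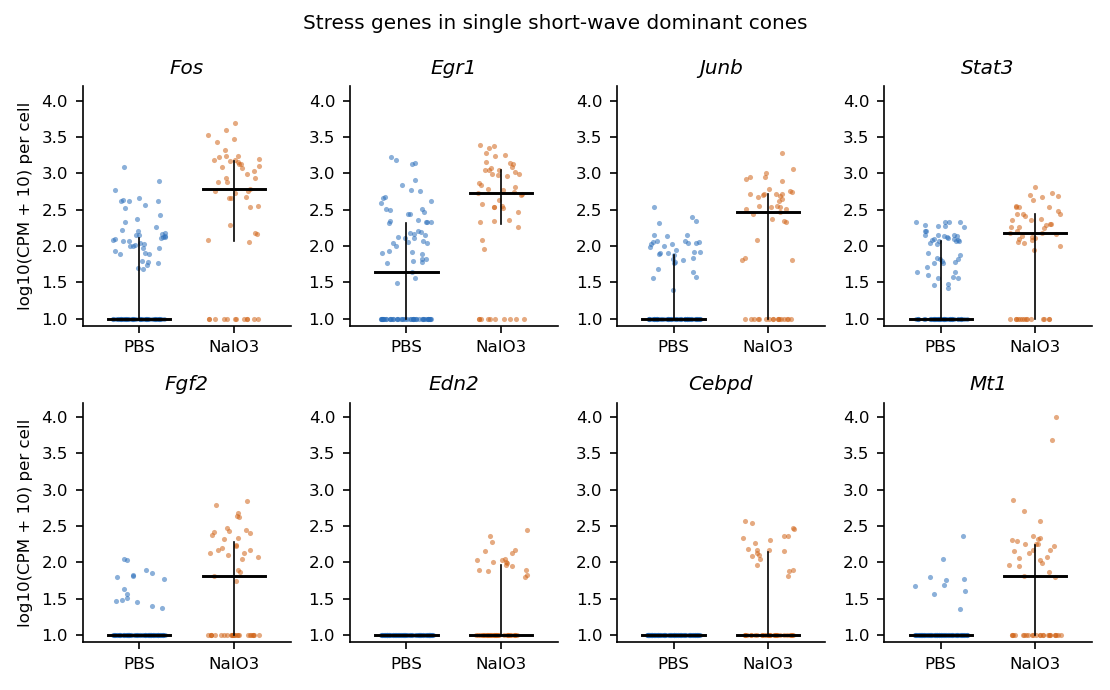
Level per cell, log10 of CPM plus 10 (vertical), of Fos, Egr1, Junb, Stat3, Fgf2, Edn2, Cebpd and Mt1 in S-dominant cones of the PBS and NaIO3 libraries; each point is a cell, thick bars are medians and thin lines quartiles. The NaIO3 medians of Fos (588 CPM), Egr1 (527 CPM) and Junb (280 CPM) lie above the PBS medians, while Edn2 and Cebpd are at 0 in every PBS cell.

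Stress genes of other kinds were less uniform. Of 11 heat shock genes 5 were higher and 0 lower; the median was 0.46 and 0.17 with TMM. Low-rod members had 5 of 10 higher and 1 lower (median 0.42). Hsp90ab1, a constitutive chaperone, was at 333 and 728 CPM, 2.18 (1.92 to 2.48), and Hspa8 at 561 and 983 CPM, 1.75, while Hsp90aa1 had a ratio of 0.986. Of 16 genes of the unfolded protein response 4 were higher and 0 lower; the median was 0.26 (in the low-rod members 5 higher, 2 lower and 0.25). Its chaperone Hspa5 had a ratio of 1.17 (0.977 to 1.4). Of 21 antioxidant, metallothionein and iron genes, 5 of them through NaIO3 alone, 9 were higher and 3 lower; the median was 0.45. The counts were 9 of 20 higher and 5 lower in low-rod members (median 0.48). Sod1, a cytosolic superoxide dismutase, was at 93.4 and 190 CPM, 2.03, while Fth1, the ferritin heavy chain, had a ratio of 0.724, Gpx4, which reduces lipid peroxides, 0.836, and the transferrin receptor Tfrc was at 223 and 124 CPM, 0.553.

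Cell death genes went both ways, 2 of 13 higher and 3 lower; the median was 0.03 and −0.49 with TMM. Low-rod members had 2 of 10 higher and 3 lower (median −0.09). Gsdme, a gasdermin that forms membrane pores once cleaved, was at 120 and 240 CPM, 2.0 (1.59 to 2.50), and 1.55 in the low-rod members.

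Immune genes had low levels. Of 9 measured interferon-response genes, 8 of them through NaIO3 alone, 8 were higher and 0 lower; the median was 3.52, but only 3 were measured in the low-rod members, with a median of 0.47. With members thinned to 1500 UMIs the median turned to −1.548. Irf9, a subunit of the interferon-activated complex, was at 7.04 and 52.5 CPM, 7.45 (3.65 to 16.4), and its partner Stat2 at 17.3 and 55.9 CPM. Bst2 had 0 UMIs in PBS and 55.9 CPM in 13 NaIO3 members, at least 29.1-fold higher, beside 936 CPM in the C1q-positive cells of that library.

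Of 7 MHC class I genes, which present peptides to T cells, 4 were measured through NaIO3 alone and so had to be higher. In all 6 were higher and 0 lower; the median was 1.962 and 0.63 in the low-rod members. H2-D1 was at 69.1 CPM in PBS and 244 in NaIO3, 3.53 (2.73 to 4.57), and 2.27 in the low-rod members. H2-K1 was at 36.5 and 142 CPM, 3.90, and 1.54 (0.679 to 3.29) in the low-rod members. The light chain B2m had 1 UMI in PBS and 59.2 CPM in NaIO3, where C1q-positive cells had 3822 CPM. The part of microglial RNA was not tested.

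Of 5 measured genes that act on microglia or complement, 2 of them through NaIO3 alone, 4 were higher, with a median of 1.46 and 0.61 in the low-rod members. Cd47, a signal against phagocytosis, was at 131 and 361 CPM, 2.75 (2.26 to 3.35), and 1.35 (0.906 to 1.99) in the low-rod members. Clu, clusterin, was at 134 and 278 CPM, 2.07, and in the other cones at 132 and 640 CPM.

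Many glycolytic genes were lower, 8 of 18 by 1.5-fold and 0 higher, where 9.37% of all genes were lower. Their median was −0.44 in S-dominant cones, −0.43 in other cones, −0.59 in rods and −0.99 in the low-rod members. Pgam1, which moves the phosphate of phosphoglycerate, was at 884 CPM in PBS and 293 in NaIO3, 0.331 (0.281 to 0.388). Aldoa was at 2684 and 1142 CPM, 0.426, Eno1 at 1124 and 467 CPM, 0.415, and Pkm at 2151 and 1005 CPM, 0.467. Gapdh had a smaller difference, at 2948 and 2183 CPM, 0.741, and Ldha almost none, at 981 and 951 CPM, 0.970.

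Of 12 genes of cone survival and glucose uptake 1 was higher and 7 lower (median −0.63), where 9.37% of all genes were lower. Of the 12, 3 were measured through PBS alone and so had to be lower. In the low-rod members 1 of 11 was higher and 4 lower (median −0.06), where 22.8% of all genes were lower. Nxnl1, which encodes the rod-derived cone viability factor, was at 342 and 222 CPM, 0.649, and its paralog Nxnl2 at 336 and 139 CPM, 0.413. Bsg, basigin, through which the Nxnl1 product acts on glucose uptake, was at 840 and 379 CPM, 0.452, and at 0.605 in the low-rod members. The glucose transporter Slc2a1 had a ratio of 0.999 (0.653 to 1.5) and hexokinase Hk2 of 0.858. The insulin receptor Insr was at 32.6 and 59.2 CPM, 1.81.

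Of 45 nuclear genes of oxidative phosphorylation 0 were higher, where 30.3% of all genes were, and 4 lower. Their median was −0.12 against 0.27 for all genes, and Ndufa4, a subunit of the respiratory chain, had a ratio of 0.607. In the low-rod members 2 were higher (4.44%, against 26% of all genes) and 10 lower (22.2%, near the 22.8% of all genes), with a median of −0.22. The 13 mitochondrially encoded genes, bounded by the rule's own limit, had a median of −1.14 and 9 lower (−0.73 and 9 in the low-rod members), with mt-Atp6 at 19619 and 6247 CPM, 0.318. Of 15 sterol genes 4 were higher (Scd2, Lss, Fdft1 and Sc5d) and 0 lower; the median was 0.37 and −0.01 in the low-rod members.

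Rod genes turned with the choice of members. Of 16, 1 was higher and 9 lower in all members (median −0.64), whereas in the low-rod members, picked by 5 of these genes, 9 were higher and 2 lower of 15 (median 0.87).

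**Figure D5:**
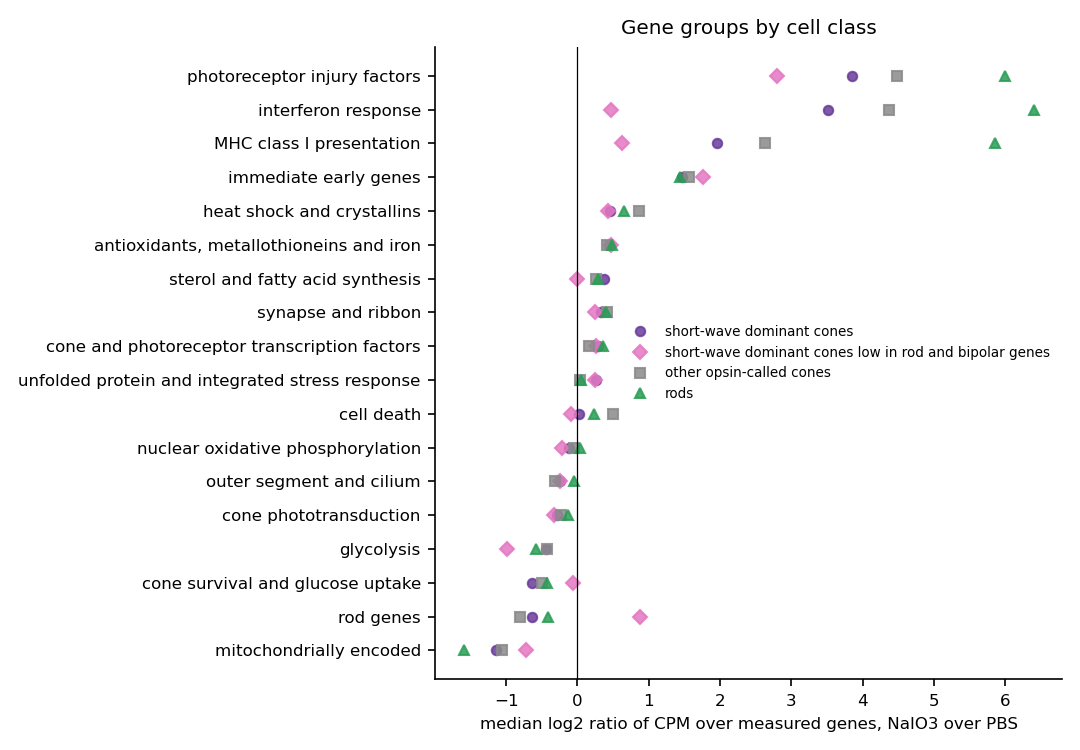
Median log2 ratio of CPM, NaIO3 over PBS (horizontal), of each gene group (vertical) in S-dominant cones, S-dominant cones low in rod and bipolar genes, other called cones and rods. Injury genes (3.86), interferon genes (3.52) and MHC class I genes (1.962) lie far to the right in S-dominant cones, and glycolytic genes left of 0 in all 4 classes. Of the injury, interferon and MHC class I genes measured in S-dominant cones, 8 of 13, 8 of 9 and 4 of 7 passed the minimum through NaIO3 alone.

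Genes were also ranked by ratio among those with at least 100 CPM in a library and 50 summed UMIs, leaving out genes over 5-fold higher in rods, Müller glia or C1q-positive cells. The 12 highest were Cadps, Trpm1, Trnp1, Meg3, Pcp4, Pcp2, Neurod4, Grik1, Bc1, Fosb, Fgf2 and Fos. The first 7 of these are over 5-fold higher in the bipolar cells of the NaIO3 library than in the members, a class the ranking did not filter. Trpm1, the channel of ON bipolar cells, had 0 UMIs in PBS and 322 CPM in 8 NaIO3 members. In the low-rod members it had 0 and 1 UMI, and Pcp2, a Purkinje and bipolar cell protein, 1 and 1 UMI. Bc1, a neuronal noncoding RNA, was at 8.32 and 352 CPM with 60.1% in 1 cell. Among the 12 lowest were Hist1h1c, Hopx, Gstp1, Fam3c, Fscn2, Pfkl, Guca1b, Grcc10, Pgam1, Erh and Vtn. Hopx, a homeodomain protein without DNA binding of its own, was at 176 and 49.1 CPM, 0.279, and rods had 5.49 CPM of it in PBS. Other cones had 213 and 57.1 CPM of Hopx, 0.269, and Müller glia 545 and 169 CPM. The part of glial RNA in the Hopx levels was not tested. Hist1h1c, a linker histone, was at 136 and 33.9 CPM, 0.249. Vtn, the matrix protein vitronectin, was at 1226 and 427 CPM, 0.348.

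The NaIO3 to PBS ratios of S-dominant and other cones were less than 2-fold apart for most genes. A ratio of ratios at least 2-fold from 1 was seen in 42 of 3879 genes (1.08%), 26 higher and 16 lower in S-dominant cones, and the median absolute log2 difference was 0.20. Socs3 had log2 ratios of 0.85 in S-dominant and 3.0 in other cones, a difference of −2.15 (−2.97 to −1.32). Fosb, at 4.15 and 6.72, and Clu, at 1.05 and 2.27, were higher in both classes with the larger ratio in other cones. Several of the 26, Trnp1, Pcp4, Pcp2 and Trpm1 among them, are also high in the bipolar cells of these libraries, and the part of bipolar RNA was not tested.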

How the data were processed

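Single-cell RNA of mouse retina was measured in 1 PBS and 1 NaIO3 library. The authors deposited raw UMI counts per gene and cell barcode, made with Cell Ranger 3.0.2 per the file headers on mm10, a build named in the submitters' processing notes. Which gene annotation they used was not stated in the labels or headers. Of 31053 genes in the files, 30934 IDs were matched to GENCODE M21 for positions. Cell filters and the opsin rule are given in the text. Doublets were sought with Scrublet in scanpy 1.11.5 at an expected rate of 6%. It marked 0 of 4656 and 1 of 7380 cells, did not work, and removed none.

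Counts were summed over members and scaled to CPM (Python 3.11.15, numpy 2.4.6, scipy 1.17.1, pandas 2.3.3, figures with matplotlib 3.10.9); edgeR 4.0.16 in R 4.3.3 gave the TMM factors. With 1 library a group no test was made. A group at 0 was set to 3 counts, over the group. PCR copies were collapsed by UMI. Checked on simulated counts of the NaIO3 against PBS comparison over 4204 genes with 200 changed 4-fold, the 2-fold rule recovered 100% of higher and 81% of lower genes and called 0.168% of unchanged ones. With 1 library a group the data hold no spread between libraries, so the 0.168% is no false-call rate for the real comparison. Precision follows the summed UMIs.

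The members, the 27 gene lists and the alternatives were chosen with earlier results of these data known, and the low-rod subset and the split by Opn1mw after the data were seen. Of the listed genes Eys, Mx2 and Pcare had no value and were not used here. Named genes were the 12 highest and 12 lowest ratios at 100 CPM in a library and 50 summed UMIs, without mitochondrial, ribosomal, sex-linked, unnamed and gate genes and genes over 5-fold higher in rods, Müller glia or C1q-positive cells (not bipolar cells); from each list up to 5 by summed UMIs and 2 furthest from a ratio of 1, with others of a list named for their role; and genes with the same 2-fold difference between S-dominant and other cones in both libraries. Alternatives covered the opsin limit, depth, mitochondrial limit, scaling, gene minimum and thinning. Some genes that the rule names are not reported here.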

Additional observations from a re-analysis of the deposited data

How the results depend on the processing

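No paired analysis was possible because each group is 1 library, so the groups share only 1 replicate number and it was given by order. Leaving out a replicate is likewise not possible. Counts of genes past 2-fold, higher and lower, were 173 and 270 with TMM, 180 and 265 with median of ratios, 175 and 72 at 100 CPM and 50 UMIs, and 1339 and 542 with no CPM minimum and 10 UMIs. The lower count was 210 in members with no Opn1mw UMI, 338 in those under the median of rod genes and 394 in the low-rod members, and the higher count was 196 after thinning. The share of higher among called genes went from 78.1% to 39.1% with TMM and 40.4% with median of ratios. Members were 31.7% (PBS) and 21.3% (NaIO3) of called cones at a 90% opsin limit, and 58.4% and 40.4% at 50%; thinning gave 44.7% in NaIO3. They were 4.16% (PBS) and 1.05% (NaIO3) of all cells at the stricter UMI minimum, and 1.12% in PBS at 10% mitochondrial UMIs. Against other cones, the lower count in both libraries was 6 with other cones under 50% Opn1sw and 9 after thinning, and 13 higher and 16 lower in low-rod cones. Ccdc136 was among the higher genes each time, Cacna1h not after thinning or in low-rod cones, Syndig1l not after thinning, and Fzd10 not in low-rod cones. The ratio of ratios passed 2-fold in 278 genes after thinning and 442 in low-rod cones. Unthinned, 48.4% of PBS and 76.5% of NaIO3 members had a Fos UMI, and 80.6% and 47.1% an Opn1mw UMI (46.2% in PBS at 1000 UMIs).

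Directions turned for Cabp5 (−0.0075 in members with no Opn1mw UMI), H2-Q4 (−1.46) and the interferon median (−1.548) after thinning, for Nrl (0.94), Gnb1 (1.74), H2-Q7 (−0.73) and the rod list (1.5) in members under the median of rod genes, and for Gnb1 (1.5), H2-Q7 (−0.90) and the rod list (0.87) in the low-rod members, all log2 ratios. The cause was not tested. Over 162 genes 648 values moved, 7 reversed and 1260 did not move; over 23 list medians 157 moved, 3 reversed and 114 did not. Depth limits genes under about 50 summed UMIs.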
